A study of Mus musculus with 12 samples.

Results

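The BCL2 family decides, at the outer membrane of the mitochondrion, whether a cell starts apoptosis. The 10 genes described here were chosen by name, with earlier results of these data known. They include the survival genes Bcl2, Bcl2l1 (encoding BCL-XL) and Mcl1 and the pore-forming effectors Bax and Bak1. The others are the BH3-only genes Bcl2l11 (BIM), Bbc3 (PUMA), Pmaip1 (NOXA), Bmf and Bid. All 10 were found among the 16290 lines of the deposited expression table, and all 10 passed the filter on low values. Survival proteins bind and hold effectors and BH3-only proteins. BH3-only proteins are made or activated under stress, and free effectors then open pores that release cytochrome c. In liver fibrosis the family is of interest because activated hepatic stellate cells, the main source of scar matrix, resist apoptosis, and their death accompanies the resolution of scars.

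The cells were EMS404, a mouse hepatic stellate cell line derived from the C57Bl6 strain, SV40-immortalised and expressing human TLR4, which every group carried. Each culture received a scrambled siRNA or an siRNA against Bmal1, the core clock transcription factor encoded by Arntl. After 48 h, cells were given vehicle or 10 ng/mL TGFb, the main fibrogenic cytokine, for 24 h. There were 12 RNA-seq libraries, 3 in each of the 4 groups, and cells with the scrambled siRNA are called control cells below. The line is 1 immortalised line, and the agent of SV40 immortalisation usually includes large T antigen, which binds p53, an activator of Bbc3, Pmaip1 and Bax. Whether EMS404 makes large T antigen is not stated in its labels. Transcripts were measured, not proteins or cell death, and in bulk RNA fewer cells and less RNA per cell cannot be told apart.

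Values are FPKM as deposited, which count fragments per length of transcript and per library. FPKM totals ran from 445472 to 483957 per library, read depth is unknown, and Pearson correlations across genes within groups were 0.9912 to 0.9983. Arntl stood at 5.18 ± 0.26 FPKM (SD, n = 3) in control cells with vehicle and at 3.79 ± 0.171 with its siRNA. Under TGFb the same pair of means was 10.7 ± 0.184 and 4.35 ± 0.603. Along the first principal component, which held 71.0% of the variance, the second library of Bmal1 siRNA with TGFb stood at -5.13, its companions at 12.99 and 8.4, and all vehicle libraries between -17.76 and -15.42. The members' log2 changes that use this library are given below with and without it. Its own shares and its ratio of Bcl2l11 to Bbc3 are set beside those of its companions. The other ratios and the pathway lists include it. Of 11 stellate markers 9 had a line, and Lrat and Reln had none. The summed FPKM of the 9 was 4674 to 7097, most of it Col1a1, while Des stood at 0.52 to 1.23 FPKM. Of 10 leukocyte markers 7 had a line. Their sums were 11.96 to 14.4 FPKM with vehicle and 9.01 to 10.6 with TGFb in control cells, and 8.22 to 9.26 and 7.64 to 9.28 with Bmal1 siRNA. Lyz2, Laptm5, Itgam and Csf1r stayed below 1 FPKM. Most of the sum was Cd14 and Cd68, which TGFb lowered in control cells (7.81 to 4.8 and 4.28 to 2.86 FPKM), while Fcer1g rose from 0.36 to 1.47 FPKM. Cd14 was also lower with Bmal1 siRNA under vehicle (log2 change -0.63, limma adjusted p = 0.0253). The endothelial genes Pecam1, Cdh5 and Kdr and the hepatocyte genes Apoa1 and Hnf4a also stayed below 1 FPKM, as did the biliary gene Epcam, and Alb had no line. In control cells the sum of the 5 hepatocyte markers with a line was 199 to 220 FPKM with vehicle and 70.6 to 93.1 with TGFb, most of it Trf, while Ass1 rose from 5.93 to 33.5 FPKM. The sum of 6 cholangiocyte markers was 77.4 to 88.9 and 212 to 231 FPKM, most of it Spp1, while Krt7, at 2.41 FPKM with vehicle, fell (log2 change -0.71, adjusted p = 0.00293). That of 8 endothelial markers was 80.3 to 84.6 and 105 to 112 FPKM, most of it Eng. With Bmal1 siRNA the hepatocyte sums were 214 to 250 and 61.7 to 117 FPKM, the cholangiocyte sums 82.0 to 93.3 and 105 to 189, and the endothelial sums 76.3 to 78.4 and 86.6 to 93.7. The part of these shifts in the results below was not tested.

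Start-site sequence was examined because BMAL1 binds the E-box CACGTG, SMAD proteins downstream of TGFb bind CAGACA, and FOXO factors, known activators of Bcl2l11 and Bbc3, bind GTAAACA. Both strands were searched in RefSeq promoter windows (GRCm38.p6, the mm10 build), each from 250 bases before to 50 bases after a start site. Windows were at hand for 9 of the 10 members, all but Pmaip1, 16 in all, and 6 of these held a searched motif. The E-box was in 2 member windows, those of Bax and Bbc3, against 7.15% of 32851 windows genome-wide. The FOXO element was in 2, of Bcl2l11 and Bbc3 (background 3.65%), and the SMAD element in 3, of Bmf, Bbc3 and Bak1 (21.04%). The AP-1 element TGACTCA was in none of the 16 (5.2%). No searched motif was in a window of Bcl2, Bcl2l1, Mcl1 or Bid, all of which changed with TGFb in control cells (below). The SMAD elements of Bbc3 and Bak1, at -205 and -225, are not shown. The 5 stretches below are a selection and hold their motifs in capitals. Those of Bbc3, Bax and Bcl2l11 are from genes with changes described later, and in that of Bmf the SMAD element occurs in tandem. All are read 5′ to 3′ on the gene's strand.
Bbc3 E-box, chr7:16310355-16310384, plus strand, motif at -64: gcggggcgggcgCACGTGgcggcgtcgagg
Bax E-box, chr7:45466890-45466919, minus strand, motif at -9: agcgatgatgatCACGTGactagtcctgcg
Bcl2l11 FOXO element, chr2:128125800-128125829, plus strand, motif at -227: aagacactaggGTAAACAcgccggggtggg
Bbc3 FOXO element (reverse strand), chr7:16310083-16310112, plus strand, motif at -167: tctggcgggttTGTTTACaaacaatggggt
Bmf SMAD element (reverse strand), chr2:118544617-118544646, minus strand, motif at -47: gccagtcctcacTGTCTGtgtctgggaacc
Positions count from the start site of the RefSeq window, and the 2 Bbc3 motifs lie in windows of different start sites. A match describes letters in a window, not binding. The Bax stretch runs across the gene's start, and a further E-box lay at +36 in the same window. The SMAD element in Bmf was followed by another at -41.

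Per length of transcript, the effectors were the most abundant members and Bcl2 the least. Mean FPKM over the 12 libraries was 206 for Bak1, which ranked 294 among 15720 genes. Bax followed at 50.6, Bcl2l1 at 42.8 and Mcl1 at 34.6 FPKM. The BH3-only genes were lower, with Bmf at 10.9, Bbc3 at 8.51, Bid at 7.96, Bcl2l11 at 7.46 and Pmaip1 at 2.17 FPKM. Bcl2 stood at 1.78 FPKM, a low value per length over 9157 exon bases, and its fragment count is unknown. Among the 3 survival members, Bcl2l1 and Mcl1 held nearly all of the summed FPKM. Bcl2l2, which encodes the survival protein BCL-W and is not among the 10, had group means of 6.98 to 7.73 FPKM.

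**Figure D1:**
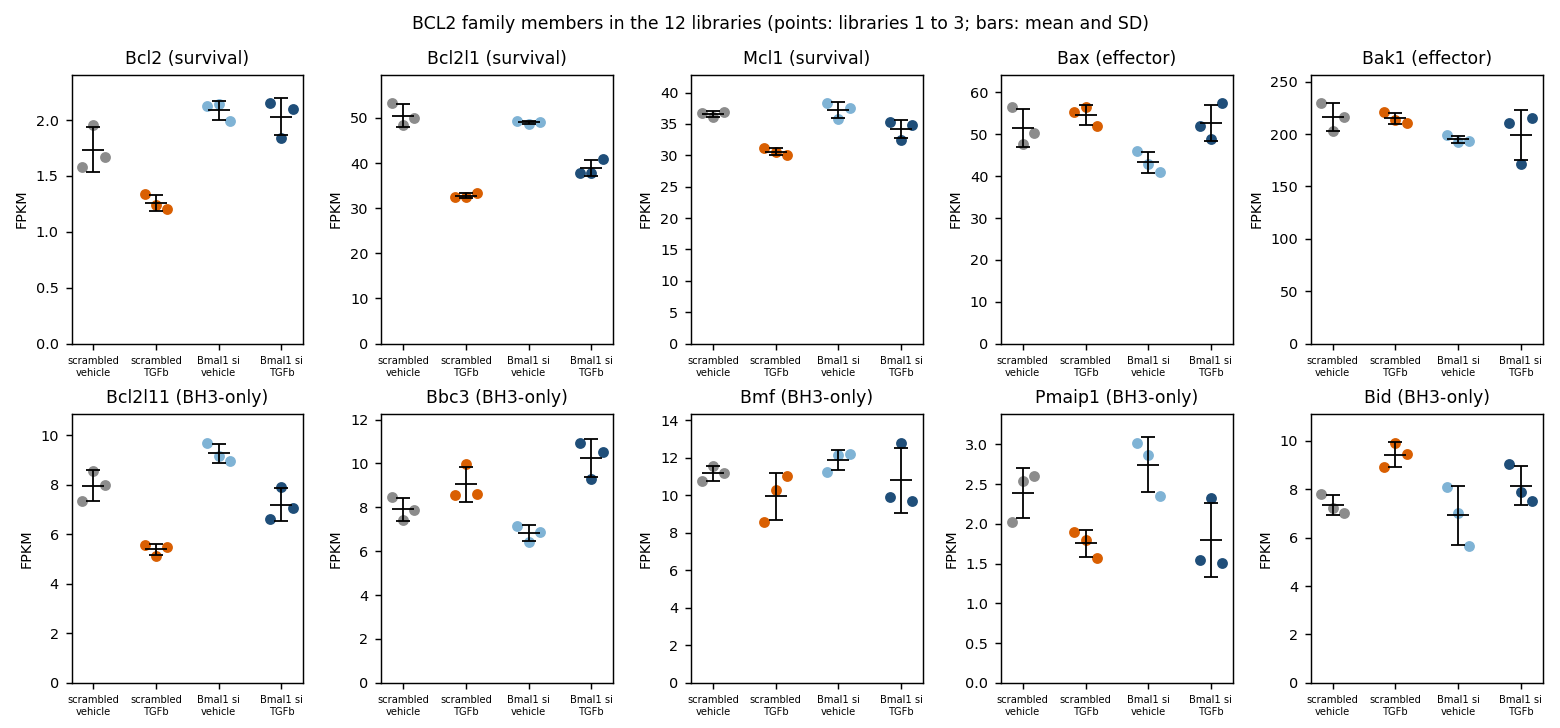
FPKM of the 10 BCL2 family genes in each of the 12 libraries, by siRNA and treatment. Points are libraries 1 to 3, lines with bars the group mean and SD, and each panel has its own axis from 0. Bcl2l1 in control cells fell from between 48.4 and 53.2 FPKM with vehicle to between 32.5 and 33.4 with TGFb, and stood between 37.8 and 41.0 with Bmal1 siRNA and TGFb.

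TGFb lowered all 3 survival genes and Bcl2l11 and raised Bid in control cells. Changes are log2 differences of FPKM + 1 with standard errors (SE), from limma over 11208 genes, and calls needed an adjusted p (Benjamini-Hochberg) under 0.05. Of the 10 members 1 was called higher and 4 lower, beside 45.5% of all genes called (16.4% higher, 29.1% lower), so the share of members called was near the background. The members' median log2 change was -0.20, and that of all genes was -0.05.

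Bcl2l1 (ENSMUSG00000007659, chr2:152780668-152831728, minus strand) had the largest fall among the members. It read 53.2, 48.4 and 49.9 FPKM with vehicle and 32.5, 32.5 and 33.4 FPKM with TGFb. The groups did not overlap, and the means differed by -35.1%. The log2 change was -0.61 (SE 0.047, adjusted p = 4.36e-07). Mcl1 (ENSMUSG00000038612, chr3:95658788-95663176, plus strand), whose short-lived protein holds BAK1 and BIM, read 36.8, 36.1 and 36.9 FPKM with vehicle and 31.1, 30.6 and 30.01 with TGFb. Every TGFb library was lower, with a log2 change of -0.25 (SE 0.045, adjusted p = 0.000486). Bcl2 (ENSMUSG00000057329, chr1:106538178-106714274, minus strand) read 1.58, 1.96 and 1.67 FPKM with vehicle and 1.34, 1.24 and 1.20 with TGFb, a change in the mean of -27.4%. On the log2 scale it changed by -0.27 (SE 0.073, adjusted p = 0.00798), and the call ended under quantile normalization (adjusted p = 0.0502).

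Bcl2l11 (ENSMUSG00000027381, chr2:128126038-128162547, plus strand) encodes BIM, a BH3-only protein that binds every survival member, and it moved with the survival genes. It read 7.34, 8.56 and 8.0 FPKM with vehicle and 5.57, 5.13 and 5.48 FPKM with TGFb. These groups did not overlap, and the log2 change was -0.49 (SE 0.071, adjusted p = 0.000101). Bid (ENSMUSG00000004446, chr6:120891930-120916853, minus strand), whose product caspase-8 cleaves to link death receptors to the mitochondrion, went the other way. It read 7.80, 7.22 and 7.0 FPKM with vehicle and 8.90, 9.92 and 9.47 FPKM with TGFb. All TGFb libraries were higher, with a log2 change of 0.32 (SE 0.099, adjusted p = 0.0174). That call ended without the second control TGFb library (adjusted p = 0.0582), without the third control vehicle library (0.0609) and without both second TGFb libraries (0.053).

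The other 5 members did not pass. Pmaip1, whose product binds MCL1, read 2.02, 2.54 and 2.60 FPKM with vehicle and 1.90, 1.79 and 1.57 with TGFb. The groups were separate, at a log2 change of -0.30 (adjusted p = 0.0507), and 9 of 24 alternatives called it. Bbc3 gave 0.17 (adjusted p = 0.0807), with 7.41 to 8.46 FPKM under vehicle and 8.58 to 9.97 under TGFb. Bbc3 was called under each of 3 rescalings (adjusted p = 0.0322, 0.029 and 0.0417) and with array weights (0.0174). Estimation of the array weights, here and below, stopped before it converged. With them limma called 6454 of all genes in this comparison, beside 5105 as reported. Bax gave 0.09 (95% interval -0.07 to 0.24), Bak1 -0.0063 (-0.17 to 0.15) and Bmf -0.16 (-0.37 to 0.05), each with overlapping groups. For Bak1 the sign changed under all 3 rescalings. Groups were separate for 2 members in the higher and 5 in the lower direction, beside 55.0% of all genes (20.3% higher, 34.7% lower).

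**Figure D2:**
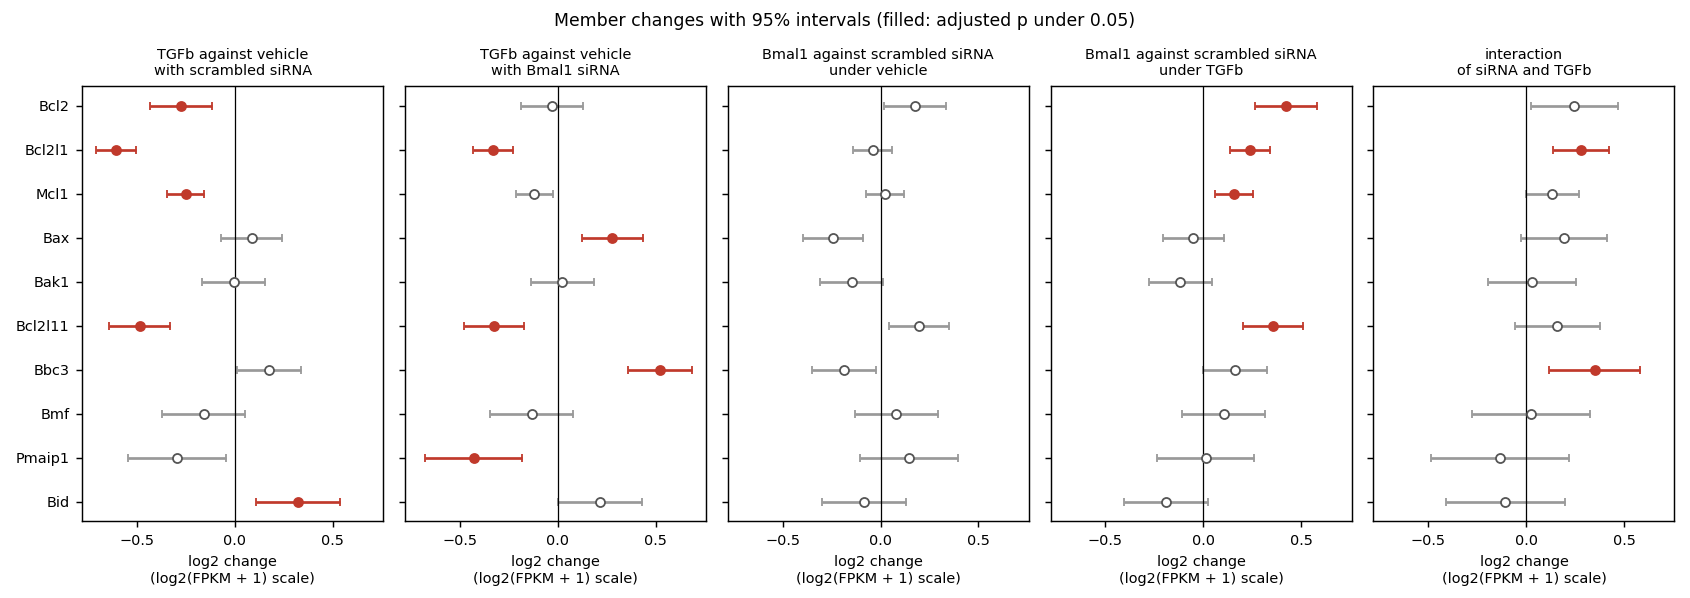
log2 change of FPKM + 1 for the 10 members in each comparison, with 95% intervals from limma and filled points where the adjusted p was under 0.05. Bcl2l1 had the lowest value with TGFb in control cells (-0.61), and Bbc3 the highest with TGFb after Bmal1 siRNA (0.52).

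With Bmal1 siRNA, TGFb raised Bbc3 and Bax and lowered Bcl2l1, Bcl2l11 and Pmaip1. So 2 members were called higher and 3 lower, beside 19.0% of all genes called (8.9% higher, 10.1% lower). The members' median was -0.07 and that of all genes 0.0035. This comparison shares no library with the one in control cells, but both use a spread estimated from all 12 libraries. Bcl2l1 and Bcl2l11 were called lower in both, and the share of all genes lower in both is not given here.

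Bbc3 (ENSMUSG00000002083, chr7:16308393-16318205, plus strand) encodes PUMA, a BH3-only protein that p53 and FOXO factors are known to induce. It read 7.15, 6.44 and 6.88 FPKM with vehicle and 10.95, 9.28 and 10.53 FPKM with TGFb, all 3 TGFb libraries being higher. Its mean rose by 50.3%, with a log2 change of 0.52 (SE 0.076, adjusted p = 0.000583). Without the second TGFb library the change was 0.59 (adjusted p = 9.06e-05). Bax (ENSMUSG00000003873, chr7:45461697-45466898, minus strand) read 46.0, 42.8 and 41.1 FPKM with vehicle and 52.1, 48.9 and 57.4 with TGFb, again without overlap. The log2 change was 0.28 (SE 0.072, adjusted p = 0.016), and 0.33 without the second TGFb library (adjusted p = 0.00435). The Bax call ended without the third TGFb library (0.0872), the second vehicle library (0.0578) or the third (0.0759) of the Bmal1 siRNA groups. Of the 1576 exon bases of Bax, 192 are shared with Gm45808.

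Bcl2l1 read 49.4, 48.7 and 49.1 FPKM with vehicle and 37.9, 37.8 and 41.0 FPKM with TGFb. Its log2 change was -0.33 (SE 0.047, adjusted p = 0.000505) and -0.31 without the second TGFb library (adjusted p = 0.000551). Bcl2l11 read 9.70, 9.15 and 8.96 FPKM with vehicle and 6.62, 7.92 and 7.06 with TGFb. Its log2 change was -0.33 (SE 0.071, adjusted p = 0.00637) and -0.39 without that library (adjusted p = 0.0012). In both genes every TGFb library was below every vehicle library. Pmaip1 read 3.02, 2.86 and 2.35 FPKM with vehicle and 1.55, 2.33 and 1.51 FPKM with TGFb, where the second library lay close to the lowest vehicle value. Its log2 change was -0.43 (SE 0.115, adjusted p = 0.02) with that library and -0.56 without it (adjusted p = 0.0011). The Pmaip1 call ended without the first (0.0821) or the third (0.0971) TGFb library and without the first (0.0724) or second (0.074) vehicle library. It also ended with only these groups in the fit (0.0525).

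Mcl1 with Bmal1 siRNA read 38.3, 35.8 and 37.5 FPKM with vehicle and 35.2, 32.5 and 34.8 with TGFb, at a log2 change of -0.12 (adjusted p = 0.0825), or -0.08 without the second TGFb library (0.181). Bcl2 gave -0.03 (95% interval -0.19 to 0.13), and its sign changed without that library (0.02). Bid gave 0.22 (0.0014 to 0.43), and 0.24 without that library, and was called without the first vehicle library (adjusted p = 0.0382). Bmf gave -0.13 (-0.35 to 0.08), and -0.25 without the second TGFb library, where it was called (adjusted p = 0.0374). Bak1 gave 0.02 (-0.14 to 0.18), and 0.13 without that library (adjusted p = 0.0836). Array weights called Mcl1 (0.048), Bmf (0.00291) and Bak1 (0.0199). Separate groups were found for 2 members higher and 4 lower, beside 35.4% of all genes (17.6% higher, 17.9% lower).

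Under vehicle, limma called none of the 10 members between the siRNAs, beside 0.66% of all genes (0.294% higher, 0.366% lower). At an unadjusted p under 0.05 there were 4, beside 21.7% of all genes. Bax read 51.5 ± 4.49 FPKM in control cells and 43.3 ± 2.51 with Bmal1 siRNA, a log2 change of -0.24 (adjusted p = 0.0995). Bbc3 read 7.91 ± 0.526 and 6.82 ± 0.358 FPKM (-0.19, adjusted p = 0.187). In the other direction, Bcl2l11 read 7.97 ± 0.611 and 9.27 ± 0.384 FPKM (0.20, adjusted p = 0.146), and Bcl2 1.74 ± 0.199 and 2.09 ± 0.0839 (0.18, adjusted p = 0.194). These 4 genes and Bak1 had separate groups, 2 higher and 3 lower, beside 31.7% of all genes (16.7% higher, 15.1% lower). Array weights called Bax (adjusted p = 0.0208).

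Under TGFb, the Bmal1 siRNA left all 3 survival genes and Bcl2l11 higher than the scrambled siRNA. Limma called these 4 members higher and none lower, beside 23.2% of all genes called (16.0% higher, 7.16% lower). The median was 0.13 for the members and 0.06 for all genes. This comparison and that of TGFb with vehicle in control cells both use the 3 control TGFb libraries, whose values for these 4 genes were the lowest of the 4 groups. Their changes in the 2 comparisons are therefore not separate evidence.

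Bcl2 differed most in proportion, with 1.34, 1.24 and 1.20 FPKM in control cells and 2.15, 1.84 and 2.10 FPKM with Bmal1 siRNA. Its mean was 61.1% higher, at a log2 change of 0.42 (SE 0.073, adjusted p = 0.0014) with the second Bmal1 siRNA library and 0.47 (adjusted p = 0.00138) without it. Of 9157 exon bases of Bcl2, 558 lie opposite the antisense gene D630008O14Rik, and strand use in counting is not given. Bcl2l11 was higher by 0.36 (SE 0.071, adjusted p = 0.00356), or 0.29 without that library (adjusted p = 0.0133). Bcl2l1 was higher by 0.24 (SE 0.047, adjusted p = 0.00324), or 0.26 without it (adjusted p = 0.00392). All Bmal1 siRNA libraries lay above all control libraries in these 3 genes.

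Mcl1 was higher by 0.16 (SE 0.045, adjusted p = 0.0247), also without overlap, and by 0.19 without the second Bmal1 siRNA library (adjusted p = 0.0113). Its call ended in 8 of 24 alternatives. These were scaling to equal totals (0.108), median-of-ratios scaling (0.213), quantile normalization (0.0524) and only the groups compared (0.0758). They also included fits without the first (0.0692) or the third (0.0778) Bmal1 siRNA library, or the second (0.0625) or the third (0.0845) control library. The calls of Bcl2, Bcl2l1 and Bcl2l11 stood in every alternative run.

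Among the members not called, Bbc3 gave 0.16 (95% interval -0.0023 to 0.33), Bid -0.19 (-0.41 to 0.02) and Bak1 -0.12 (-0.28 to 0.04). Bax gave -0.05 (-0.21 to 0.10), Bmf 0.10 (-0.11 to 0.32) and Pmaip1 0.01 (-0.24 to 0.26). Without the second Bmal1 siRNA library these were 0.23 for Bbc3 (adjusted p = 0.062), -0.17 for Bid, -0.0141 for Bak1, 0.002 for Bax, -0.0131 for Bmf and -0.12 for Pmaip1. Groups overlapped for all 6. Over all members, called or not, separate groups were found for 4 higher and none lower, beside 39.2% of all genes (28.1% higher). Array weights called Bbc3 higher (adjusted p = 0.00334) and Bid lower (0.00855). Bbc3 was also called without both second TGFb libraries (adjusted p = 0.0234), an alternative chosen after seeing the data.

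The difference between the responses was tested as an interaction, the TGFb change with Bmal1 siRNA minus that in control cells. It was called for Bcl2l1 and Bbc3, 2 of 10 members, beside 14.4% of all genes (8.86% higher, 5.52% lower). For Bcl2l1 the fall was smaller with Bmal1 siRNA, with an interaction of 0.28 (SE 0.066, adjusted p = 0.0147) and of 0.30 without the second Bmal1 siRNA TGFb library (adjusted p = 0.0118). The Bcl2l1 call ended with median-of-ratios scaling (0.0554) and in no other alternative. For Bbc3 the rise was larger with Bmal1 siRNA, with an interaction of 0.35 (SE 0.108, adjusted p = 0.0464), and of 0.41 without that library (adjusted p = 0.0184). The Bbc3 call ended in 14 of 23 alternatives, among them 9 of the 12 fits that left out a library (adjusted p 0.0184 to 0.118 over the 12).

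Those 9 fits for Bbc3 left out the first (0.0825) or the third (0.0964) Bmal1 siRNA TGFb library, or the first (0.0562), second (0.118) or the third (0.0836) Bmal1 siRNA vehicle library. In control cells they left out the first (0.0949) or the third (0.107) TGFb library, or the first (0.102) or the third (0.0794) vehicle library. For the other 8 members the difference between responses did not pass. Bcl2 gave 0.25 (adjusted p = 0.132), Mcl1 0.13 (0.179), Bax 0.19 (0.227) and Bcl2l11 0.16 (0.316). Without the second Bmal1 siRNA TGFb library they gave 0.29 (0.0827), 0.17 (0.0779), 0.24 (0.115) and 0.097 (0.538). The remaining interactions were -0.13 for Pmaip1, -0.11 for Bid, 0.03 for Bak1 and 0.02 for Bmf, and -0.26, -0.09, 0.13 and -0.09 without that library. Array weights called Bcl2 (adjusted p = 0.00858), Mcl1 (0.00763) and Bax (0.00605), but their estimation had not converged. They called 3723 of all genes, beside 1612 as reported. For Bcl2, which passed for TGFb in control cells and not with Bmal1 siRNA, the difference of the responses passed with array weights and in no other alternative.

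The family's make-up was described from FPKM, which is per length, with no test. Survival genes held 22.6 ± 0.474% (SD, n = 3) of the summed FPKM of the 10 members in control cells with vehicle and 17.5 ± 0.253% with TGFb. With Bmal1 siRNA they held 24.2 ± 0.372% with vehicle and 20.6 ± 0.917% with TGFb. Effectors held 68.0 ± 1.06%, 72.9 ± 0.74%, 65.4 ± 0.131% and 68.9 ± 2.27% in the same order, and most of this was Bak1. BH3-only genes had group means of 9.37% to 10.5% and held 8.79% to 12.1% in single libraries. The highest of these was the second Bmal1 siRNA TGFb library, where survival genes held 21.7% and effectors 66.3%. Its companions had at most 20.1% for survival genes, 69.9% and 70.5% for effectors, and 10.1% and 9.4% for BH3-only genes.

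The ratio of Bcl2l1 to Bax FPKM, a common index of survival against effector transcript, ran from 0.943 to 1.01 in control cells with vehicle and from 0.574 to 0.642 with TGFb. With Bmal1 siRNA it ran from 1.07 to 1.19 with vehicle and from 0.714 to 0.772 with TGFb, where the second library was highest. No group overlapped another in this ratio, which was highest with Bmal1 siRNA and vehicle. Mcl1 to Bax had means of 0.714, 0.56, 0.86 and 0.649 in the same order. Bcl2 to Bax had means of 0.0341, 0.0231, 0.0482 and 0.0385. Scaling a library by a constant leaves such ratios as they are. Among BH3-only genes the ratio of Bcl2l11 to Bbc3 had means of 1.01 with vehicle and 0.60 with TGFb in control cells, and of 1.36 and 0.71 with Bmal1 siRNA, without overlap between treatments. In the last group this ratio was 0.853 in the second library and 0.605 and 0.671 in its companions.

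**Figure D3:**
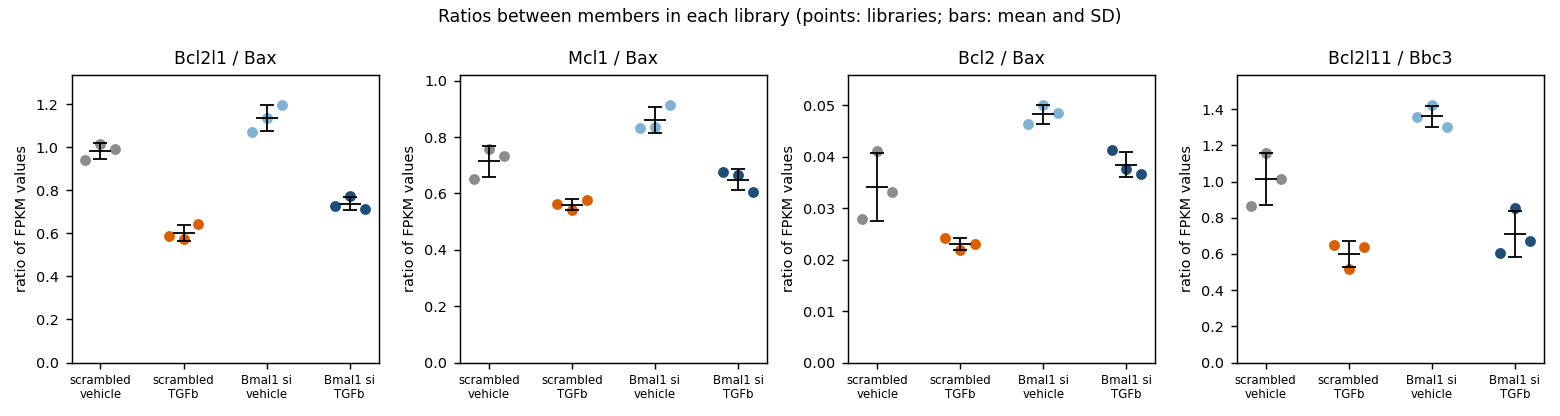
Ratios of FPKM values between members in each of the 12 libraries, by siRNA and treatment, on axes from 0. Points are libraries and bars the group mean and SD. Bcl2l1 to Bax lay between 0.574 and 0.642 in control cells with TGFb and above that in every other library.

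Ordering the 4 groups by mean showed 2 recurring shapes, given as a description. Bcl2, Bcl2l1, Bcl2l11 and Mcl1 were lowest with control siRNA and TGFb, and in each the group above it was separate. Their highest mean was with Bmal1 siRNA and vehicle, except for Bcl2l1, whose vehicle groups overlapped at 50.5 ± 2.48 and 49.0 ± 0.335 FPKM. The highest group also overlapped the next for Bcl2 and Mcl1, and was separate only for Bcl2l11. Bax, Bbc3 and Bid were lowest with Bmal1 siRNA and vehicle, a group that was separate from the next for Bax and Bbc3 and overlapped it for Bid. Pmaip1 and Bmf had the same order of means as Bcl2l11 and Mcl1, and Bak1 was also lowest with Bmal1 siRNA and vehicle. In Bid, Bak1, Pmaip1 and Bmf each neighbouring pair in the order overlapped. Bak1 ranged from 172 to 229 FPKM over all libraries, with its lowest value in the second Bmal1 siRNA TGFb library. Bak1 shares 437 and 177 of its 2407 exon bases with entries for Ggnbp1 on the other strand, and Bid shares 628 of 3550 with Bcl2l13.

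Across the 12 libraries, Pearson's r of log2(FPKM + 1) was 0.93 between Bcl2l1 and Mcl1 and 0.86 between Bcl2l11 and Mcl1. It was 0.79 between Bbc3 and Bax and -0.84 between Bbc3 and Pmaip1. These 12 points share their 4 groups, and no test was made. The genes outside the family most like Bcl2l11 were Fign (r = 0.98), Met (0.98) and Zfp608 (0.98). Met, which encodes the hepatocyte growth factor receptor, averaged 51.1, 22.7, 61.3 and 38.1 FPKM in control vehicle, control TGFb, Bmal1 siRNA vehicle and Bmal1 siRNA TGFb. The genes most like Bcl2l1 were Retreg2 (0.997), Ormdl2 (0.99) and Ankrd34a (0.98). Those most like Bbc3 were Atf5 (0.94), a stress-response transcription factor, Taf1c (0.94) and Mrpl15 (0.94).

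Other genes of the pathway were counted from lists chosen by function, with earlier results of these data known, so the counts are a description. They are to be read against the 45.5% of all genes called for TGFb in control cells and 19.0% with Bmal1 siRNA. For the interaction the share of all genes was 14.4%, and between siRNAs under TGFb it was 23.2%. Of 15 further family genes, 12 had a line and 7 were tested. In control cells TGFb raised 1, Bok (0.48, adjusted p = 0.000382), an effector-like member, and lowered 2, Bcl2l12 (-0.38) and Bad (-0.37), a BH3-only gene controlled by phosphorylation. With Bmal1 siRNA limma called none of the 7 for TGFb, and under TGFb the siRNA raised 1, Bcl2l12 (0.25, adjusted p = 0.0347). Downstream of the pore, among 21 apoptosome, caspase and inhibitor genes, TGFb raised 3 and lowered 6 in control cells, with a median of -0.10, a share no higher than the 45.5% of all genes. The falls included Casp9, the apoptosome's caspase (6.43 to 4.65 FPKM, -0.39), and Birc2, an inhibitor of apoptosis gene (7.65 to 5.93 FPKM, -0.32). With Bmal1 siRNA it raised 2 and lowered 2, among them Cycs, cytochrome c (0.29), and Xiap, a caspase inhibitor (-0.24). Under TGFb the siRNA raised 2 of the 21, Casp9 (0.33) and Casp2 (0.22).

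Upstream of Bid, 13 of 16 death receptor genes were tested. TGFb raised 2 and lowered 3 in control cells, beside 45.5% of all genes called, with Fas going from 3.01 ± 0.304 to 5.44 ± 0.229 FPKM (0.69, adjusted p = 2.03e-05) and the TNF receptor Tnfrsf1a from 97.4 to 63.9 FPKM (-0.60). With Bmal1 siRNA it raised none and lowered 2, and Fas averaged 3.08 and 2.96 FPKM. The interaction was called for Fas (-0.72, adjusted p = 0.00177) and Tnfrsf1a (0.35, adjusted p = 0.00588). Under TGFb the siRNA raised 1 of these genes and lowered 3.

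Of 16 tested genes of the p53 list, TGFb raised 6 and lowered 2 in control cells, beside 16.4% of all genes called higher and 29.1% lower. It raised 5 and lowered 1 with Bmal1 siRNA, beside 8.9% and 10.1%. Cdkn1a, a cell cycle inhibitor that TGFb also induces, had the largest rise (11.04 to 40.6 FPKM, 1.79), and it rose less with Bmal1 siRNA (12.6 to 25.6 FPKM, interaction -0.84, adjusted p = 0.0377). Interactions in the list went both ways, with 2 higher, Tigar (0.43, adjusted p = 0.027) and Sesn1 (0.39, adjusted p = 0.0386), and 2 lower, Cdkn1a and Phlda3 (-0.66, adjusted p = 0.00537). Under TGFb the siRNA raised 1 p53 list gene and lowered 2.

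Of 19 listed transcription factor and stress-response genes, TGFb raised 10 and lowered 4 in control cells, with a median of 0.44. With Bmal1 siRNA it raised 8 and lowered 1, with a median of 0.04. Runx1 went from 6.21 to 38.4 FPKM in control cells (2.45) and from 5.92 to 11.5 with Bmal1 siRNA (0.84). Foxo1 went from 3.29 to 5.63 FPKM (0.63) and from 3.99 to 3.29 FPKM, with an interaction of -0.85 (adjusted p = 0.000314). Under TGFb the siRNA lowered 7 of the 19 and raised 1. Among 14 tested genes for turnover or binding of the MCL1, BIM and BMF proteins, TGFb raised 2 and lowered 4 in control cells. Fbxw7, whose ubiquitin ligase marks MCL1 for breakdown, rose from 1.99 to 6.33 FPKM (1.30) in control cells and from 2.203 to 3.04 FPKM (0.33) with Bmal1 siRNA, where it was the only call. Dynll2, a dynein light chain that binds BMF, fell from 40.9 to 27.5 FPKM in control cells (-0.56). Under vehicle, limma called no gene of these 6 lists between the siRNAs.

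**Figure D4:**
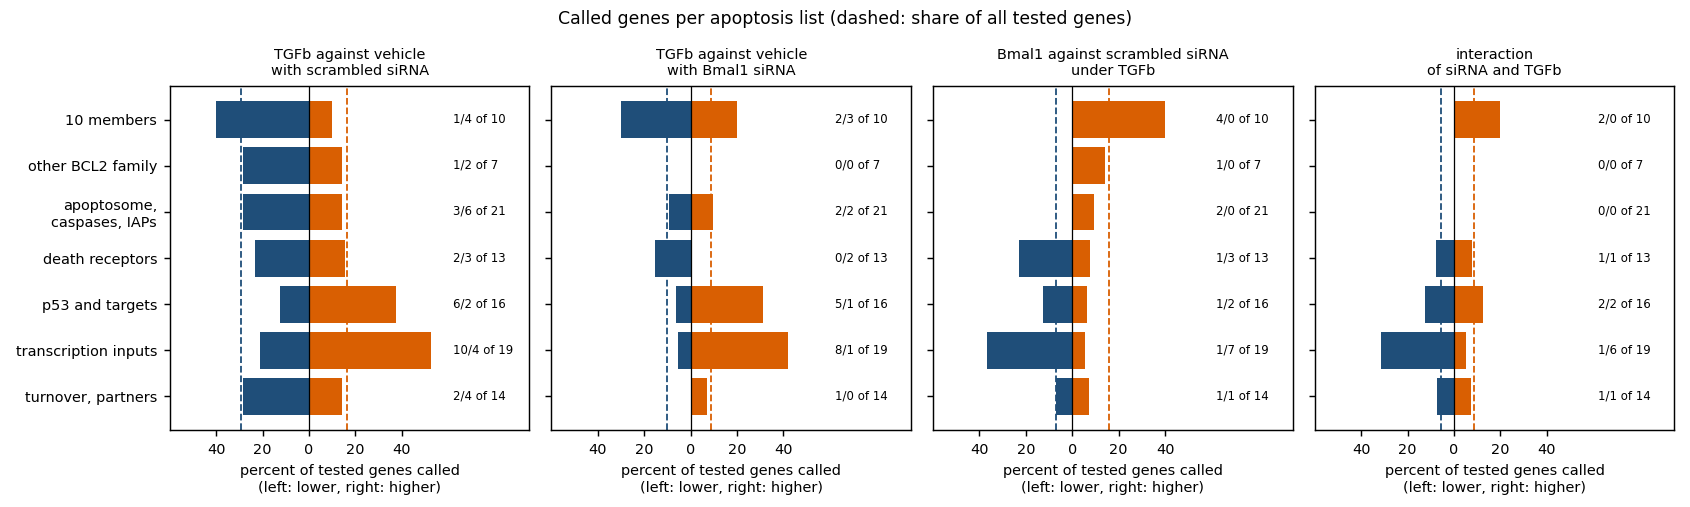
Percent of tested genes called lower (left) and higher (right) at an adjusted p under 0.05 in the 10 members and each pathway list, by comparison, with dashed lines for all tested genes and the counts of higher and lower calls beside each bar. In control cells with TGFb the list of transcription factor and stress-response genes had 10 higher and 4 lower of 19 tested. The members had 1 higher and 4 lower.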

How the data were processed

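RNA of 12 EMS404 libraries, 3 per group by the sample titles, was sequenced. Expression was deposited by the authors as FPKM, per the file headers, in 1 table of 16290 lines. The tools in the submitters' processing notes, with no roles, are RSEM, DESeq2, Bowtie2 2.2.5 and HISAT2 2.0.4, and the build is mm10. RNA integrity was at least 6.0 and 1 of 2 extraction kits was used, per the labels' protocols. Annotation version, strand use, read depth and each sample's kit are not stated in the labels. FPKM is relative to the library, so abundant genes that change shift the others. The triplicates are described as biological, yet separate cultures are not named, so p-values rest on a spread that may be technical.

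Lines without an identifier (555, 1.304% to 1.464% of FPKM) and the lower of each of 15 repeated identifiers were left out, leaving 15720. Symbols came from GENCODE M21, which named 15694. Values were tested as log2(FPKM + 1), a scale that understates changes of low genes such as Bcl2 and Pmaip1, with limma 3.58.1 (R 4.3.3, two-sided, intensity trend). A group-means model over all 12 libraries had 8 residual and 5 prior degrees of freedom, for the 11208 genes whose mean FPKM reached 0.5. Benjamini-Hochberg adjustment ran over all of these, with a threshold of 0.05, and every adjusted p is from limma. The fit was tested on simulated data. Named genes were all 10 members, Arntl, up to 4 called genes per list and comparison with the largest change, and, for the 3 members with the widest range of group means, the 3 genes of highest Pearson r. A gene that meets this rule is not reported here. Alternatives were other pseudocounts, filters, scalings, a replicate block, weights, and leaving out each library. The members and lists were chosen with earlier results of these data known. A search for the BH3 motif in member proteins was not run. Promoter windows were from RefSeq.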

Additional observations from a re-analysis of the deposited data

Results flagged for a closer look

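For Bcl2l1 and Bbc3 the TGFb response differed between the siRNAs by the interaction term of the limma fit. The interaction of Bcl2l1 was 0.28 on the log2(FPKM + 1) scale (SE 0.066, adjusted p = 0.0147), from a change of -0.61 in control cells and -0.33 with Bmal1 siRNA. All 3 TGFb libraries lay below all 3 vehicle libraries with either siRNA. The interaction of Bbc3 was 0.35 (SE 0.108, adjusted p = 0.0464), from a change of 0.17 in control cells and 0.52 with Bmal1 siRNA, and all 3 TGFb libraries lay above all 3 vehicle libraries with either siRNA. Between the siRNAs limma did not call Bbc3, at 0.16 under TGFb (adjusted p = 0.14) and -0.19 under vehicle (adjusted p = 0.187). The Bbc3 call ended in 14 of 23 alternatives, among them all 3 rescalings (adjusted p = 0.099, 0.106 and 0.0893) and 9 of the 12 fits with 1 library left out. The Bcl2l1 call ended with median-of-ratios scaling (adjusted p = 0.0554).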

How the results depend on the processing

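The direction of every called member change was kept in all alternatives. Leaving out 1 library at a time, limma called 4 to 6 members for TGFb in control cells (5 as reported), 3 to 6 for TGFb with Bmal1 siRNA (5), 0 to 0 for the siRNA under vehicle (0), 3 to 4 for the siRNA under TGFb (4) and 1 to 2 for the interaction (2). Array weights, whose estimation stopped before it converged, called 8 for TGFb with Bmal1 siRNA, 1 for the siRNA under vehicle and 5 for the interaction. The interaction count was 1 with equal totals, with no filter, with a pseudocount of 5 and with quantile normalization, and 0 with median-of-ratios scaling. The cause was not tested.

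The labels do not say whether the replicate numbers pair the samples, and the fit as reported did not use them. Of 12 correlations of same-numbered deviations 5 were over 0.1 (range -0.149 to 0.475), and a library's best match had its own number in 20 of 36 cases. A random pick among the 3 libraries of a group would match less often on average. With the replicate block limma called 6, 5, 0, 4 and 2 members in the order above. Over all genes it called 5360, 2556, 540, 2947 and 1893, beside 5105, 2128, 74, 2596 and 1612 as reported. Under quantile normalization, which also changes ratios within a library, the means with Bmal1 siRNA and vehicle were 65.8% for effectors, 10.0% for BH3-only genes, 0.0442 for Bcl2 to Bax and 0.209 for Bcl2l11 to Bax, and Bcl2 to Bax was 0.0251 in control cells with TGFb. Over all genes, the siRNA under vehicle called 74 genes, 1490 with array weights, 540 with the block, 7 with no filter, 414 without both second TGFb libraries, 229 with only the groups compared and 2 to 472 with a library left out. TGFb with Bmal1 siRNA called 2128 genes, 5513 with array weights, 3246 without both second TGFb libraries and 1171 to 3265 with a library left out. The siRNA under TGFb called 2596, or 4914 with array weights, 1489 without both second TGFb libraries and 1542 with only the groups compared, and the interaction 1612, 3723 with array weights and 991 to 1872 with a library left out.

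Rescaling moved the share of calls that were higher. It was 36.1% for TGFb in control cells as deposited, 49.8% with median-of-ratios scaling and 47.3% with quantile normalization. For the siRNA under TGFb it was 69.1%, and 44.9%, 53.9% and, with equal totals, 58.9%. For the interaction it was 61.6%, and 42.1%, 49.7% and 44.4%. For the siRNA under vehicle it was 44.6%, and 61.2% with equal totals.

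Signs changed for 9 values, none of them called in the fit as reported. Bak1 with TGFb in control cells was 0.0431 with equal totals, 0.0563 with median-of-ratios scaling, 0.0066 with quantile normalization and between -0.0511 and 0.0369 with 1 library left out. Bak1 with TGFb after Bmal1 siRNA was between -0.035 and 0.1266 with 1 library left out. The Bak1 interaction was -0.0346 with equal totals, -0.0314 with median-of-ratios scaling and between -0.0287 and 0.1329 with 1 library left out. Bcl2 with TGFb after Bmal1 siRNA was 0.0022 with array weights, 0.0445 with quantile normalization, 0.0181 without both second TGFb libraries and between -0.0566 and 0.0181 with 1 library left out. For the siRNA under TGFb, Bax was 0.0834 with array weights, 0.0273 without both second TGFb libraries and between -0.1112 and 0.002 with 1 library left out. Pmaip1 was -0.0549 with array weights, -0.0095 with equal totals, -0.0327 with median-of-ratios scaling, -0.0774 with quantile normalization, -0.1098 without both second TGFb libraries and between -0.1203 and 0.0836 with 1 library left out. Bmf was -0.0912 with array weights and between -0.0131 and 0.1743 with 1 library left out. The Bmf interaction was -0.1716 with array weights, -0.0349 with equal totals, -0.0317 with median-of-ratios scaling, -0.0147 with quantile normalization, -0.0693 without both second TGFb libraries and between -0.0935 and 0.0939 with 1 library left out. Bid with the siRNA under vehicle was between -0.1891 and 0.0342 with 1 library left out.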
